A study of Mus musculus with 18 samples.

Results

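The comparison described here set RNA that came down with an antibody to Kif5A against the input RNA of the same tissue, axoplasm of mouse dorsal roots. Its members were chosen by label and not by any measured value: the 3 Kif5A precipitate libraries and the 3 input libraries of dorsal root, 6 of the 18 libraries of the series, with every named gene of the dorsal root table. The animals were C57B6 mice, with no other genotype or treatment named, and no age is given. Per the labels, 5 animals were pooled for each of 3 independent repeats, roots were ground, spun at 10000 g for 10 min, and the pellet was discarded. About 200 ug of this lysate met 10 ug of antibody during 3 h, either rabbit polyclonal anti-Kif5A or the rabbit IgG isotype, and was caught on Protein G beads and washed with up to 1% NP40, while input was RNA of input material. The 3 IgG precipitate libraries of dorsal root and the libraries of sciatic nerve, which per the labels was taken from the same animals, are cited only beside the results they bear on.

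Kif5A is a heavy chain of kinesin-1, the motor that walks along microtubules towards the axon tip, and it is made mainly by neurons, whereas Kif5b is found in most cells. Kinesin-1 is built of heavy chains, which bind microtubules and hydrolyse ATP, and light chains, which join them to cargo. In axons its known cargo includes vesicles, mitochondria, neurofilaments and granules of mRNA with RNA-binding proteins. Dorsal roots carry the central branches of sensory neurons from the ganglia to the spinal cord, together with Schwann cells, fibroblasts, vessels and, close to the cord, oligodendrocytes. The comparison addresses which transcripts made up a larger or smaller share of the precipitate than of the lysate.

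The 6 libraries held between 14731865 and 20022870 reads on named genes, and levels of single genes below are in CPM, the reads of a gene relative to all reads of its library, scaled by library size and by TMM factor, a correction for composition. Of 14779 gene names, 13904 had enough counts to be tested. Fth1, ferritin heavy chain, took 15, 19.3 and 20.7% of the reads of the inputs but 6.8, 7.71 and 11.3% of those of the Kif5A precipitates. Kif5A library 3 stood apart from the other Kif5A libraries: it was nearest to the input in 84 of the 119 genes called higher and 130 of the 173 called lower. No pair of libraries of the same group agreed within sampling noise, the smallest chi-square per gene being 23, so all 6 were counted. Of 23 sensory neuron markers, 14 stood in the table and 12 were tested. Snap25, a neuronal membrane fusion protein, stood at 632 to 655 CPM in the inputs. All 14 together, Snap25 included, summed to 797, 751 and 836 CPM by library size alone there. On the scale of that sum Snap25 is lower, as the TMM factors of the inputs were 0.865, 0.846 and 0.886. The share of the other markers was not computed. Whether such markers tell dorsal root from sciatic nerve was not tested.

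Between precipitate and input, 292 of 13904 genes (2.1%) passed an edgeR adjusted p of 0.05, 119 of them higher with Kif5A (0.856%) and 173 lower (1.24%). The genes that were higher had a median log2 ratio of 2.04 and those that were lower a median of -1.79, and in all 292 the 3 Kif5A libraries lay outside the range of the 3 inputs. Across all tested genes 15.2% lay wholly above and 15.2% wholly below. The calls stood close to the threshold: the smallest adjusted p was 0.00676, for Efhb, and the other 291 ran from 0.0451 to 0.0498. Unadjusted p values under 0.05 were reached by 1744 genes in the higher and 1520 in the lower direction. Replicate number was left out of this fit, as the labels do not say that equal numbers share animals. With it as a block, 1 of the 292 genes passed, in the lower direction.

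The number of calls turned on single libraries. It fell to 1 gene when input 1, input 2, input 3 or Kif5A 1 was left out and to 0 when Kif5A 2 was left out, whereas without Kif5A 3 it was 2735, with 1174 higher and 1561 lower, and those included all 292. The split of calls depended on the scaling. With library size alone in place of TMM, the median log2 ratio of all genes moved up by 0.36. By that scaling 989 genes were called higher and 190 lower, so that 83.9% of calls were higher against 40.8%. All directions of single genes and list medians below are relative to the TMM scale, but summed levels of lists are by library size alone.

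**Figure D1:**
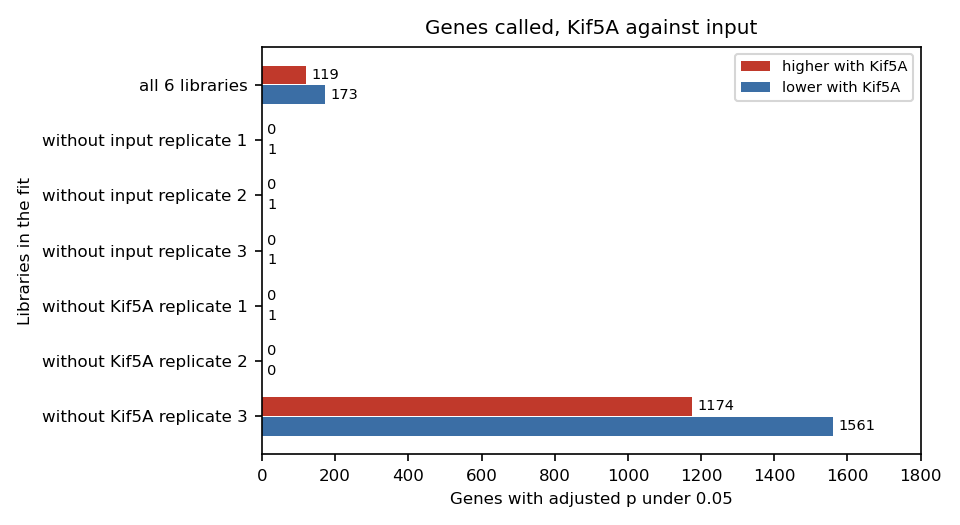
Number of genes with an edgeR adjusted p under 0.05 (horizontal axis) in the fit of all 6 libraries and in fits that leave out the library named on the vertical axis; red bars are genes higher and blue bars genes lower in the Kif5A precipitate. Leaving out Kif5A replicate 3 gave 1174 and 1561 genes, and leaving out any other library gave 0 or 1 gene.

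Among the kinesin-1 chains, the mRNA of Kif5a itself was higher in the precipitate. Its level was 60.1, 53.6 and 58.4 CPM in the inputs and 123, 177 and 106 CPM in the Kif5A precipitates, a log2 ratio of 1.24 ± 0.25 (SE; edgeR adjusted p = 0.0481). The groups did not overlap, and the rise was 2.37-fold. Kif5a is a single transcript in the table, at chr10:127225696-127263348 on the minus strand of GRCm38. With Kif5A 1, Kif5A 2 or any input left out, its ratio lay between 0.98 and 1.30 and the adjusted p between 0.0768 and 0.246, and without Kif5A 3 they were 1.37 and 0.00291. With replicate number as a block the ratio was 1.21 and the edgeR adjusted p 0.0735. In the authors' deposited table this transcript had a log2 ratio of 1.29 and a false discovery rate of 0.166. In the IgG precipitates Kif5a stood at 67.6, 20.0 and 144 CPM, a range that covered the inputs and most of the Kif5A libraries.

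The other 4 chains in the table did not pass the test. Klc1, a light chain, stood at 10.6, 8.34 and 14.4 CPM in the inputs and 26.3, 29.9 and 20.1 CPM with Kif5A, without overlap (log2 ratio 1.20 ± 0.33, adjusted p = 0.072). Kif5c, the other heavy chain found mainly in neurons, had a ratio of 0.88 ± 0.32 (adjusted p = 0.134), with Kif5A library 3 inside the input range. Klc4 had a ratio of 0.67 (adjusted p = 0.147), and Kif5b, the widespread heavy chain, a ratio of 0.11 (adjusted p = 0.802). All 5 ratios were above 0, with a median of 0.88 against 0.05 over all genes, and 52.7% of all genes were above 0. The summed level of the 5 chains, in CPM by library size alone, was 1314, 1252 and 829 with Kif5A, 649, 709 and 709 in the inputs and 1019, 837 and 1109 with IgG. That scale raises Kif5A against input relative to TMM, so the Kif5A and input sums stand farther apart on it. Of 28 tested genes in the list of other kinesins and adaptors none passed in either direction, and their median was 0.21. That list does not hold every kinesin: Kifc3, outside it, had 102 reads with Kif5A and 3 in the inputs, as given below.

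**Figure D2:**
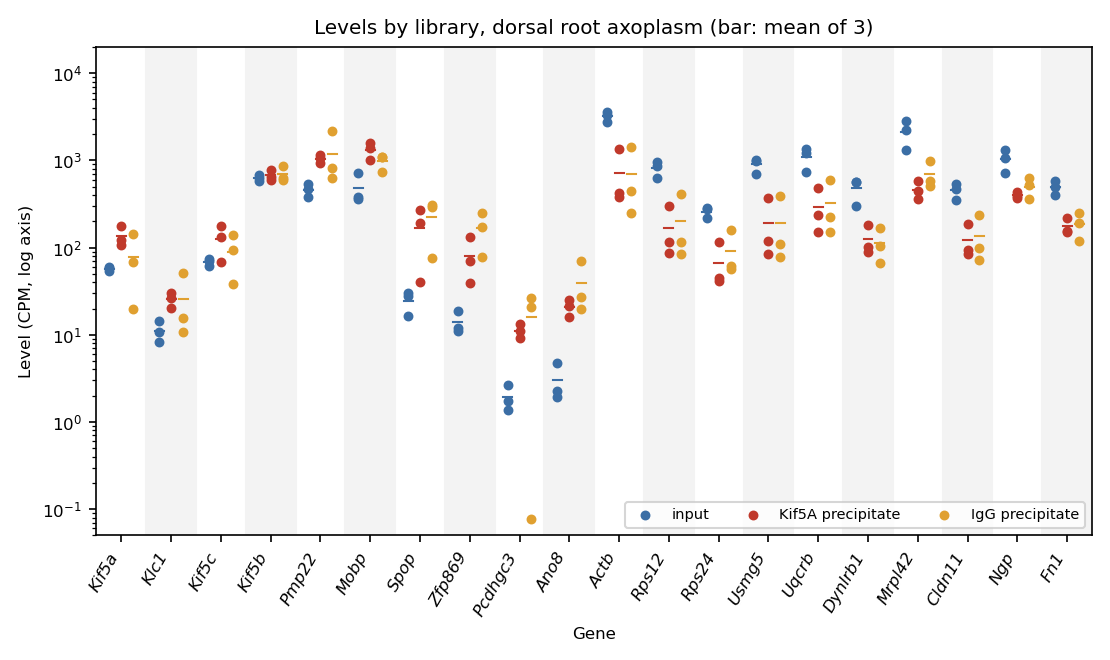
Level of 20 genes (CPM, log axis) in each library of dorsal root: blue points are inputs, red Kif5A precipitates and yellow IgG precipitates, with a short bar at the mean of 3 libraries. For Kif5a the 3 Kif5A libraries lie above the 3 inputs, for Actb and the genes to its right they lie below, and for Kif5a and Pcdhgc3 the IgG libraries spread more widely than either group.

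The genes with the largest rises came from many roles and stood at low levels in the input. The median input level of the 119 higher genes was 5.35 CPM, against 23.5 CPM in the precipitate. Acaa1a, a peroxisomal thiolase of fatty acid breakdown, had the largest ratio of those named, 3.52 ± 0.73 (adjusted p = 0.0481), with 2.43, 3.00 and 2.85 CPM in the inputs and 64.4, 25.1 and 4.93 CPM with Kif5A. Most of its reads fell on a transcript annotated as retaining an intron, and it has a near copy in the genome, so its single value is uncertain. Stk25, a kinase, and Rbck1, a part of a ubiquitin ligase that builds linear chains, also rested on retained-intron transcripts, with ratios of 3.00 and 2.94.

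Genes of which the protein-coding transcript carried the rise included Spop, Zfp869 and Ano8. Spop, which presents substrates to a cullin ubiquitin ligase, stood at 29.97, 16.6 and 27.6 CPM in the inputs and 189, 269 and 40.1 CPM with Kif5A (ratio 2.76 ± 0.56, adjusted p = 0.0481). Zfp869, a zinc finger gene, stood at 12.0, 11.2 and 18.7 CPM in the inputs and 70.9, 132 and 39.0 CPM with Kif5A (ratio 2.54 ± 0.43, adjusted p = 0.0451). Ano8, of the anoctamin membrane protein family, stood at 4.79, 2.28 and 1.94 CPM against 24.8, 21.1 and 16.2 CPM (ratio 2.78 ± 0.44, adjusted p = 0.0451). In Spop and Zfp869 Kif5A library 3 was the lowest of the Kif5A libraries, and in Ano8 it was also the lowest but close to the others. The rest of the 15 named were Zcchc24, Rsg1, Gramd1a, a carrier of sterols, Sntb1, a syntrophin of the dystrophin complex, Dgkh, Pcdhgc3, a clustered protocadherin, Mios, of the machinery that signals amino acids to mTORC1, Cacfd1 and Adprhl2, with ratios from 2.34 to 3.11.

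Only 5 of the 119 higher genes stood in any of the 39 gene lists, which hold 1126 genes. These were Kif5a and 4 others. Pmp22, a membrane protein of compact peripheral myelin, rose from 471, 382 and 534 CPM in the inputs to 1149, 1070 and 931 CPM with Kif5A (ratio 1.19 ± 0.24, adjusted p = 0.0481). Mobp, a myelin protein of oligodendrocytes, rose from 382, 361 and 714 CPM to 1009, 1395 and 1593 CPM (ratio 1.46 ± 0.32, adjusted p = 0.0485), on a transcript annotated as a target of nonsense-mediated decay. Dctn5, a dynactin subunit, and Hist1h2be, a histone gene, had ratios of 2.08 and 1.76, mostly on a retained-intron and a processed transcript.

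Ribosomal proteins of the cytosol, which form the small (Rps) and large (Rpl) subunits, were represented by 82 tested genes, of which 3 had a ratio to input above 0. None passed the test in the higher and 11 in the lower direction, and the median ratio was -1.09 against 0.05 over all genes. Over all tested genes 0.856% passed in the higher and 1.24% in the lower direction. The 11 ribosomal protein genes included Rps12, Rps20, Rps24, Rps25, Rps26, Rps28, Rpl22l1, Rpl23, Rpl23a and Rpl39. Rps12 stood at 950, 872 and 631 CPM in the inputs and 86.8, 115 and 302 CPM with Kif5A (ratio -2.28 ± 0.43, adjusted p = 0.0477). Rpl39 stood at 424, 353 and 366 CPM against 29.4, 46.8 and 141 CPM (ratio -2.39 ± 0.49, adjusted p = 0.0481).

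Within the list the Kif5A libraries were unequal. Summed over the 82 genes, in CPM by library size alone, the inputs held 23770, 23400 and 25630 and the Kif5A libraries 8672, 10290 and 20200, so that library 3 was below the inputs but much nearer to them. The list's median in the single libraries was -1.78, -1.60 and -0.38 against the mean input. Without Kif5A library 3, 66 of the 82 passed in the lower direction and the median was -1.69. With any other single library left out none passed, and the median lay between -1.12 and -0.90. The IgG precipitates, which share no library with the Kif5A ones, summed to 6769, 9757 and 18900, and the list's median for IgG against the same inputs was -1.10. Ribosomal protein genes have many processed copies in the genome, among which the counting could split reads, so single values are uncertain.

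Because mRNAs of ribosomal proteins are known for a run of pyrimidines at their start, which ties their translation to growth signals, the annotated starts were searched for a C followed by at least 4 bases that are each C or T, beginning within 3 bases of the start, on the gene's strand. RefSeq starts on GRCm38.p6 were found for 61 of the 82 genes. A gene with several listed starts was counted as holding the tract if any of them did. Of the 61 genes, 42.6% held the tract, against 14.8% of 9789 tested genes and 13.5% of 27025 gene symbols with a start. The windows of 30 bases below run from 15 bases before the annotated start and show 4 of the 11 genes that were lower, a pair with the tract, in capitals, and a pair without it; they were chosen after their values were seen.
Rps24, chr14:24490663-24490692, plus strand: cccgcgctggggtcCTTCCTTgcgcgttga
Rpl22l1, chr3:28805493-28805522, plus strand: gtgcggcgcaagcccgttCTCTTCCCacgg
Rps12, chr10:23787195-23787224, minus strand: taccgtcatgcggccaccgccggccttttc
Rpl39, chrX:37085208-37085237, minus strand: cctaagctccgcctctagcgacttcttcta
Rps24 (ratio -1.95) and Rpl22l1 (ratio -1.78) carried the tract, and Rps12 and Rpl39 held no such tract beginning within 3 bases of the annotated start, though both windows hold runs of C and T farther from it. Over the list the median ratio was -1.09 in the 26 genes with the tract and -1.09 in the 35 without it. Outside the list the medians were 0.09 in 1424 genes with it and 0.10 in 8304 without. No match says only that no tract begins within 3 bases of any listed start, and the start in use in the root was not measured.

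Other parts of translation differed less. Of 47 translation factors, 26 were above 0, none passed in the higher and 2 in the lower direction, with a median of 0.06. Over all tested genes 1.24% passed in the lower direction. The 2 were Eif1, which takes part in start codon choice, at 8161, 8791 and 6467 CPM in the inputs and 2201, 2702 and 4135 CPM with Kif5A (ratio -1.37 ± 0.30, adjusted p = 0.0485), and Tpt1, with a ratio of -1.26. No aminoacyl-tRNA synthetase of 31 passed, and their median was 0.28. Of 76 mitochondrial ribosomal proteins, 5 passed in the lower direction (Mrpl30, Mrpl42, Mrps18c, Mrps21 and Mrps36) and none in the higher, with a median of -0.23. Mrpl42 fell the most of those named, from 2241, 2810 and 1310 CPM to 361, 443 and 578 CPM (ratio -2.20 ± 0.33, adjusted p = 0.0451).

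Of the nuclear-encoded subunits of the respiratory chain and ATP synthase, 1 gene in each of 3 lists passed, each lower. Of all tested genes 1.24% passed in that direction. For complex I, which takes electrons from NADH, 6 of 36 genes were above 0 and the median was -0.98. Ndufa5 passed in the lower direction, at 330, 336 and 141 CPM in the inputs and 48.9, 59.8 and 115 CPM with Kif5A (ratio -1.84 ± 0.40, adjusted p = 0.0481). For complexes II to IV the median was -0.95 over 26 genes, and Uqcrb, a subunit of complex III, passed at 1221, 1340 and 740 CPM against 151, 238 and 481 CPM (ratio -1.92). For ATP synthase the median was -0.87 over 17 genes, and Usmg5, a small subunit, passed at 993, 1015 and 704 CPM against 83.8, 120 and 374 CPM (ratio -2.22). Per library the medians of these 3 lists lay between -1.66 and -1.11 in Kif5A libraries 1 and 2 and between -0.20 and -0.12 in library 3. For IgG against the same inputs the 3 medians were -1.13, -1.33 and -0.91. By library size alone, which raises Kif5A against input relative to TMM, the summed level of complexes II to IV overlapped between the groups. It was 4066, 4978 and 9293 CPM with Kif5A and 9237, 9921 and 9991 in the inputs. Whether these sums overlap by TMM is not given. Without Kif5A library 3, 25, 19 and 11 genes of the 3 lists passed in the lower direction, and with any other single library left out none did. The list of mitochondrial import and cristae genes had a median of -0.32 over 32 genes, with Timm8b, a carrier of the space between the membranes, lower by test (ratio -1.89).

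Actb, beta-actin, whose mRNA is a known passenger of axonal transport granules, was lower in the precipitate. Its level was 3582, 3363 and 2749 CPM in the inputs and 376, 423 and 1349 CPM with Kif5A (ratio -2.17 ± 0.45, adjusted p = 0.0481). The groups did not overlap, and the IgG precipitates stood at 248, 448 and 1428 CPM. It was the only gene of 33 in the axonal cytoskeleton list to pass, against 2.1% of all tested genes, and the list's median was -0.24. Stmn1, a regulator of microtubule ends, had a ratio of -1.35 (adjusted p = 0.0615).

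In the list of dynein, the motor that walks the other way, and its partner dynactin, 13 of 27 genes were above 0 and the median was -0.06. Dynlrb1 and Dynll1, both light chains of dynein, passed in the lower direction, as did 1.24% of all tested genes. Dynlrb1 stood at 570, 572 and 296 CPM in the inputs and 89.0, 102 and 181 CPM with Kif5A (ratio -1.95 ± 0.35, adjusted p = 0.0451), and Dynll1 had a ratio of -1.75. Dctn5, above, passed in the opposite direction.

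No gene passed in the list of RNA granule and RNA transport genes or in that of injury signalling and known axonal mRNAs, where Actb was not listed. Of 42 tested genes of RNA granules and RNA transport, 19 were above 0 and the median was -0.02. Of 24 tested genes of injury signalling and known axonal mRNAs, 11 were above 0 and the median was -0.39. Kpnb1, importin beta, had a ratio of 0.07 (adjusted p = 0.875), with 249, 209 and 249 CPM with Kif5A and 200, 219 and 258 CPM in the inputs. Mtor, the growth-signalling kinase, had a ratio of 0.29 (adjusted p = 0.591), and Ncl, nucleolin, which binds such mRNAs, a ratio of 0.59 (adjusted p = 0.141).

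The remaining lists held few calls, and 1.24% of all tested genes passed in the lower direction. A single call in a list says little about that list. Cse1l, an export receptor, was lower among 42 nuclear transport genes (ratio -2.05), Snrpe among 53 splicing genes (ratio -1.53), Atp6v0d1 among 18 vacuolar ATPase genes (ratio -1.08) and H2afz among 18 histone genes (ratio -1.32). No gene passed among 41 proteasome, 37 ER chaperone and protein entry, 27 synaptic vesicle, 18 ion channel or 36 chromatin regulator genes. Among 7 nuclear-retained noncoding RNAs none passed either. Malat1 stood at 17230, 9070 and 2900 CPM in the inputs and 28210, 22670 and 13390 CPM with Kif5A (ratio 1.15 ± 0.53, adjusted p = 0.219), and Neat1 had a ratio of 2.42 (adjusted p = 0.145). In both, the input and Kif5A libraries overlapped.

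**Figure D3:**
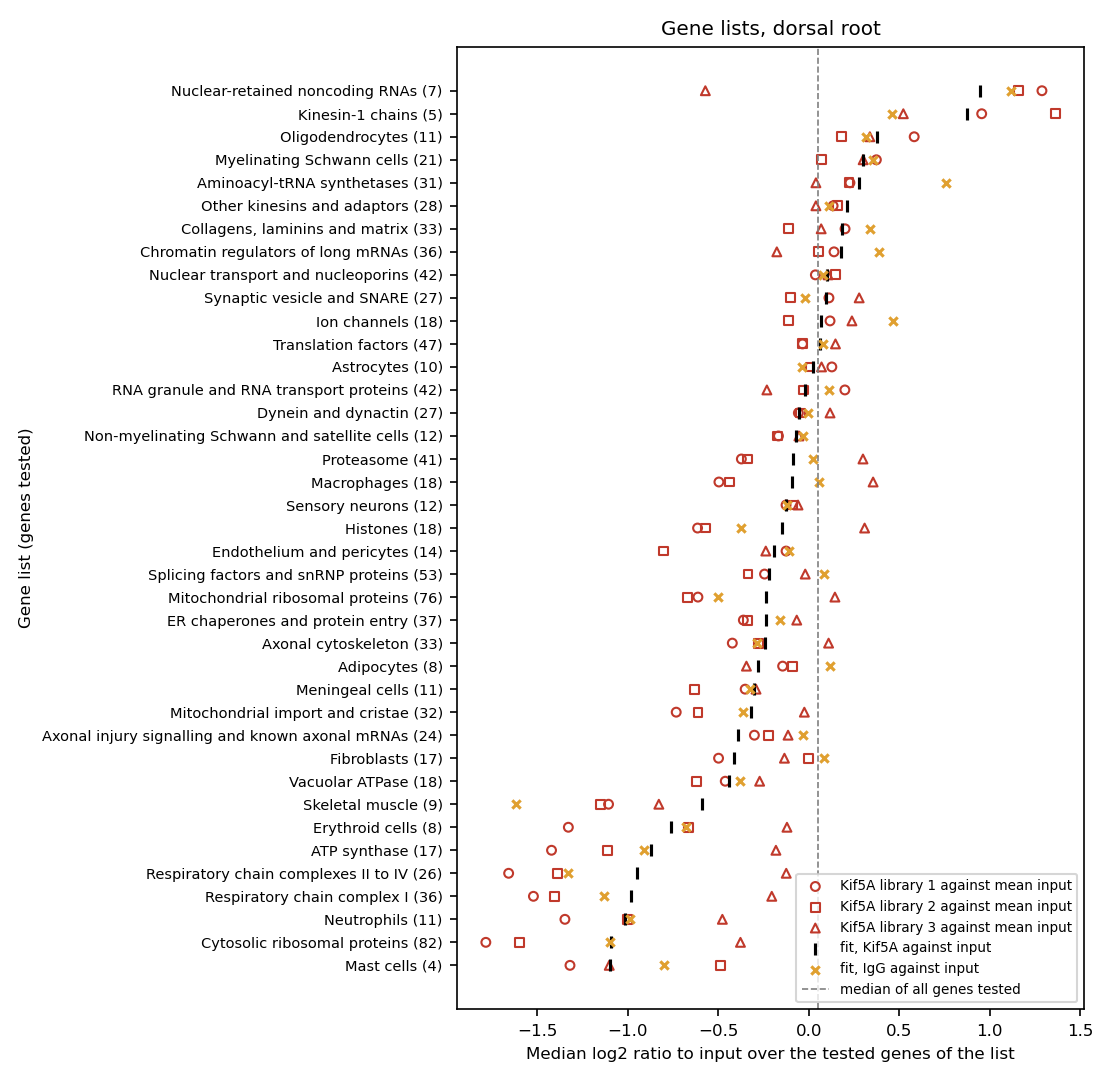
Median log2 ratio to input (horizontal axis) over the tested genes of each of 39 lists (vertical axis, number tested in brackets): black ticks are the fit of Kif5A against input, open red symbols the 3 single Kif5A libraries, yellow crosses IgG against the same inputs, and the dashed line the median of all genes, 0.05. Ribosomal proteins and the respiratory chain lie near -1, and Kif5A library 3 lies nearest to 0 there.

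Markers of the cell types of the root passed in both directions, against 0.856% of all tested genes higher and 1.24% lower. Among 21 markers of myelinating Schwann cells, 18 were above 0 with a median of 0.30, and Pmp22 alone passed. Among 11 oligodendrocyte markers 8 were above 0 with a median of 0.38. Mobp passed in the higher direction and Cldn11, a tight junction protein of central myelin also made by other cells of the root, in the lower. Cldn11 stood at 541, 465 and 356 CPM in the inputs and 94.5, 84.7 and 186 CPM with Kif5A (ratio -1.89 ± 0.33, edgeR adjusted p = 0.0451). Of 12 tested sensory neuron markers 5 were above 0, none passed, and the median was -0.13. Ntrk2, a receptor for BDNF, had a ratio of 1.14 (adjusted p = 0.0538).

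Meningeal, fibroblast, vessel and neutrophil markers were lower where they passed in the main fit, as were 173 of all 292 called genes. The meningeal genes Slc13a4 and Aldh1a2 had ratios of -1.32 and -1.11, and 3 of the 11 markers of that list were above 0. Fn1, fibronectin, passed among 17 fibroblast markers (ratio -1.48) and Cdh5, the cadherin of vessel walls, among 14 endothelial and pericyte markers (ratio -1.24). Of 11 neutrophil markers 2 passed, Ngp and Retnlg, and the list's median was -1.01. Ngp, a granule protein, stood at 1077, 1319 and 722 CPM in the inputs and 388, 440 and 373 CPM with Kif5A (ratio -1.37 ± 0.27, adjusted p = 0.0481). The summed levels of these lists are in CPM by library size alone, a scale that raises Kif5A against input relative to TMM. By it the median log2 ratio of all genes was 0.41, against 0.05 with TMM. The sums therefore cannot be set directly against the ratios above. On that scale the sums were not all lower, and whether they would be by TMM is not given. Mean sums with Kif5A and in the inputs were 7233 and 6230 for meningeal and 8139 and 7481 for fibroblast markers. They were 523 and 518 for endothelial and pericyte markers, and the groups overlapped in each of these lists. For neutrophil markers they were 1295 and 2532, without overlap. Without Kif5A library 3, 1 meningeal marker passed in the higher and 5 in the lower direction. No macrophage, mast cell, red cell, fat, muscle, astrocyte or non-myelinating Schwann cell marker passed in the main fit. The part of these markers in the other results was not tested.

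The largest fall among the named genes was in Efhb, a gene of cilia. It held 64.1, 43.2 and 10.8 CPM in the inputs but 3, 2 and 3 reads in the Kif5A libraries, a ratio of -7.98 ± 0.76 (adjusted p = 0.00676), and 3, 1 and 3 reads in the IgG libraries. The gene lies at chr17:53398889-53463321 on the minus strand and is a single transcript in the table. Its adjusted p was 0.096 without Kif5A 2 and below 0.05 without any other single library. Timeless, a replication fork protein, Sirt1, a deacetylase, and Sipa1l3 had ratios of -3.52, -3.06 and -2.71, each mostly on a retained-intron transcript. The input libraries were themselves spread in these genes: Timeless stood at 36.8, 24.2 and 9.85 CPM in the inputs and 0.61, 1.34 and 4.18 CPM with Kif5A. Ttf2, with a role in ending transcription, Pcgf2, a Polycomb protein, Arhgef40, Arl5c, Mir7688, Toporsos and Ctc1, which guards telomeres, made up the rest of the 15 with Rpl39, Rps12, Usmg5 and Mrpl42.

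Of the called genes 6 had no reads at all in one of the groups. Nlrp1a had 65 reads over the 3 Kif5A libraries and none in the inputs, at least 18.9-fold higher against a floor of 3 reads over the group, and Mapk14 had 53 and none, at least 15.4-fold higher. Pkp4 had none with Kif5A and 45 in the inputs, at least 17.2-fold lower. Gm25544, AY074887 and 4930455H04Rik also had none with Kif5A and 93, 80 and 59 reads in the inputs, at least 35.5, 30.5 and 22.5-fold lower. Such counts are small, and these 6 were picked for their zeros. Kifc3, a kinesin motor outside the list of other kinesins, had 102 reads with Kif5A and 3 in the inputs. Its ratio of inputs to Kif5A was 0.0337 (95% interval 0.00683 to 0.101, counting error only).

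The ratio to input was lowest for genes whose most counted transcript was short. In 781 genes with a transcript under 600 bases the median was -1.0, 5.63% passed in the lower and 0.128% in the higher direction. From 600 to 1000 bases the median was -0.49, from 1000 to 2000 bases it was 0.05, from 2000 to 4000 bases 0.17 and above 4000 bases 0.15. Across 13838 genes, which are not independent replicates, Spearman's rho between length and ratio was 0.20 as a description. In the single Kif5A libraries rho was 0.27, 0.21 and 0, so that library 3 showed no such trend across genes. For transcripts under 600 bases library 3 had a median of -0.36, against -1.15 and -1.12.

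Within bins of length, ribosomal protein genes lay below other genes. Under 600 bases the 26 genes of the list had a median of -1.50 against -0.94 in 721 genes outside the lists compared, and from 1000 to 2000 bases 20 genes had -0.81 against 0.07 in 2997. Mitochondrial ribosomal proteins had medians of -1.21, -0.64, 0.02, -0.14 and -0.13 in the 5 bins, from short to long, against -0.94, -0.46, 0.07, 0.18 and 0.15 in the other genes. The ratio also differed with GC content, with a median of 0.30 above 55% GC and -0.07 from 40 to 45%. By transcript type, processed pseudogenes had a median of -0.74 over 383 genes and protein-coding transcripts 0.09 over 10965.

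**Figure D4:**
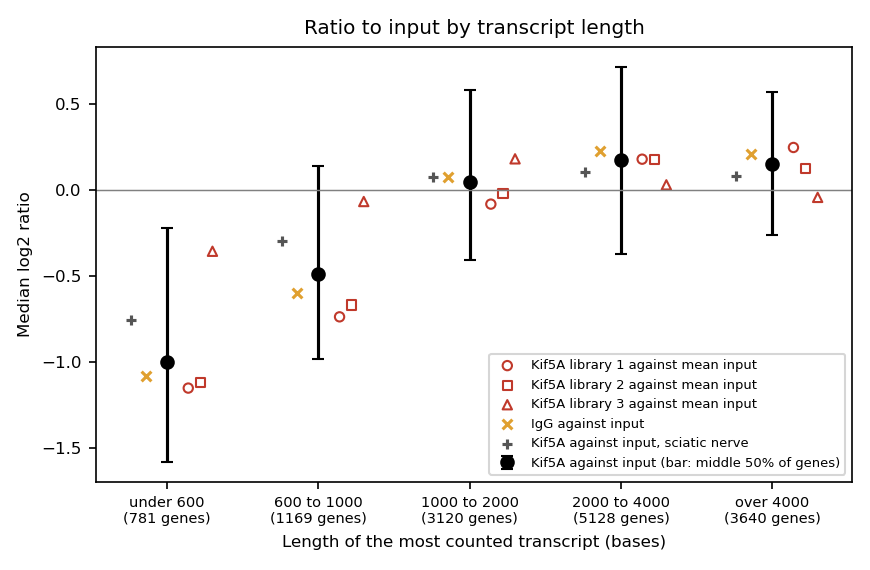
Median log2 ratio (vertical axis) in 5 bins of transcript length (horizontal axis, number of genes in brackets): black points are the fit of Kif5A against input with bars for the middle 50% of genes, open red symbols the 3 Kif5A libraries, yellow crosses IgG against input and grey plus signs Kif5A against input in sciatic nerve. The median is -1.0 below 600 bases and 0.15 above 4000 bases, and Kif5A library 3 stays nearest to 0 in the shortest bin.

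The isotype control, IgG, measures what comes down without the Kif5A antibody. Its comparison with input uses the same 3 inputs as that of Kif5A, so the values are set side by side without an overlap or correlation. The 119 genes higher with Kif5A had a median ratio of 2.04 for Kif5A and 1.96 for IgG against input, and the 173 lower genes -1.79 and -1.51. Direct comparison of Kif5A with IgG gave 0 of 13124 genes (0%) past an edgeR adjusted p of 0.05 (smallest 0.272), with 771 at an unadjusted p under 0.05, 193 by DESeq2 and 0 by limma-voom. Of the called genes that could be tested against IgG, 0 of 119 higher and 0 of 149 lower passed, and 8 and 3 had an unadjusted p under 0.05. Median ratios of Kif5A to IgG were -0.04 and -0.15.

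IgG against input gave 0 of 13371 genes (0%) at adjusted p 0.05 (smallest 0.0876), with 2466 at an unadjusted p under 0.05, 1609 by DESeq2 and 0 by limma-voom. Without IgG library 3 the number was 2591. That library stood nearest to the input, as Kif5A library 3 did: over the 119 higher genes the IgG libraries had medians of 2.10, 1.74 and 0.90, and the Kif5A libraries 1.95, 1.97 and 1.42. For single genes the IgG value could be close to or far from that of Kif5A. Kif5a had a ratio of 0.86 for Kif5A against IgG, Pmp22 -0.13, Actb 0.08, Ano8 -0.85 and Dgkh 1.56, none past the threshold. Length showed in IgG as well, with medians of -1.08 under 600 bases and 0.21 above 4000 bases.

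**Figure D5:**
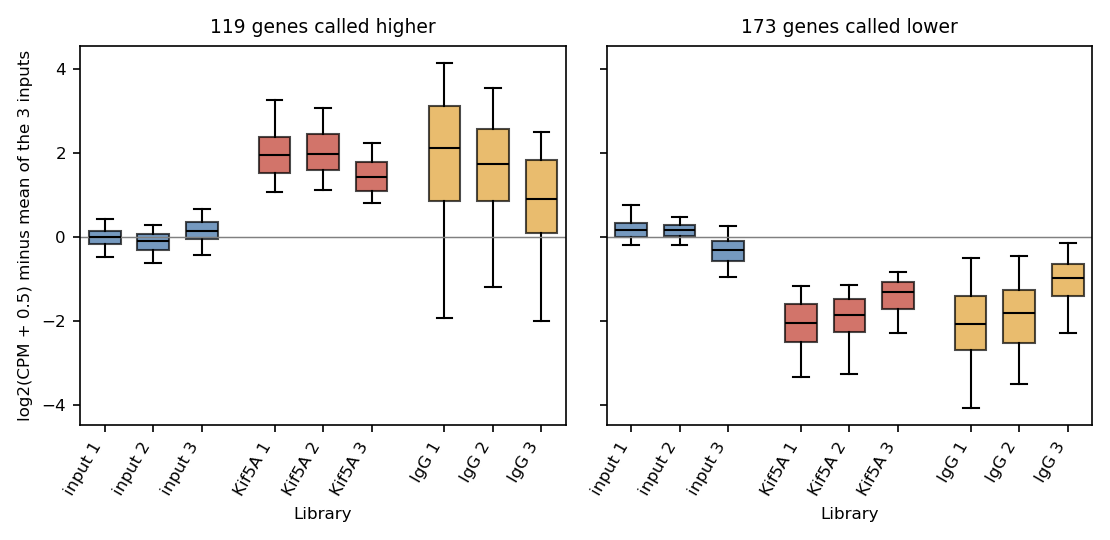
Boxes of log2(CPM + 0.5) minus the mean of the 3 inputs (vertical axis) for each library (horizontal axis) over the 119 genes called higher (left) and 173 called lower (right), with the line at the median, box edges at the quartiles and whiskers at the 5th and 95th percentiles. The genes were selected from the input and Kif5A libraries shown, and the IgG libraries, which were not used to select them, have medians of 2.10, 1.74 and 0.90 on the left.

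In sciatic nerve the same comparison, with other libraries from the same animals, gave 0 of 12867 genes (0%) at adjusted p 0.05 (smallest 0.447), with 1256 at an unadjusted p under 0.05, 160 by DESeq2 and 0 by limma-voom. Without Kif5A library 3 of that nerve the number was 2. The genes called in dorsal root nonetheless mostly had the same sign there. Of the 109 higher genes tested in both tissues 104 (95.4%) were above 0 in sciatic nerve, where 52.3% of all genes were, and of the 158 lower genes 157 (99.4%) were below 0, against 47.7%. An unadjusted p under 0.05 in the same direction was reached by 26.6% and 63.3%, against 4.99% and 4.52% of all genes. Median ratios were smaller, 1.03 against 1.93 and -1.18 against -1.73.

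Single genes differed in how far they followed. Kif5a had a ratio of 1.19 in sciatic nerve and 1.24 in dorsal root, Actb -1.74 and -2.17, and Rps12 -1.98 and -2.28. Pmp22 had -0.07 and 1.19, and Mobp -1.09 and 1.46. The test of the difference between the tissues gave 0 of 12637 genes (0%) at adjusted p 0.05 (smallest 0.122), with 382 at an unadjusted p under 0.05, 15 by DESeq2 and 0 by limma-voom. Without input library 1 of sciatic nerve it was 1. The ribosomal protein list had a median of -0.89 in sciatic nerve and -1.09 in dorsal root.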

How the data were processed

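The authors deposited raw read counts per Ensembl transcript, with their log2 fold changes and false discovery rates (adjusted p-values) beside them, per the file headers. CASAVA 1.8.2, edgeR and mm10 (GRCm38) are named in the submitters' processing notes, and the library kit was SMART-Seq v4, per the labels. Aligner, counter, strand use and annotation are not named there, so reads of overlapping or antisense genes may be mixed. Rows with no gene name, 0.186 to 0.225% of the counts, were left out, and 42 other per-sample columns were not used. Counts of named transcripts were summed per gene and the 6 libraries fitted alone with edgeR 4.0.16 in R 4.3.3 (quasi-likelihood, robust, TMM, filterByExpr, Benjamini-Hochberg over all genes). p-values measure the spread between 3 libraries a group. Whether libraries of equal number came from the same pool is not stated, and the main fit did not pair them. DESeq2 1.42.0, limma 3.58.1, other scalings and filters, single transcripts and left-out libraries were alternatives. On simulated counts for 13904 genes the test recovered 11 of 100 genes changed 2-fold and 74 of 100 changed 4-fold, and called 4 unchanged genes. The changed genes were picked only from those at a mean of 5 CPM or more, so recovery at lower levels was not simulated. Each gene was drawn on its own there, so a library that deviates across many genes, as Kif5A 3 did, was not simulated. Positions and lengths come from GENCODE M21. In what the authors deposited, 614 of 21207 transcripts had a false discovery rate under 0.05, 155 higher and 459 lower. Named genes were the 15 largest changes in each direction at 10 CPM or more, 10 fixed genes, the 3 smallest p-values per list at 5 CPM or more and the 5 most abundant per group. Predicted symbols, 6 of the higher and 37 of the lower genes, were counted only, apart from Gm25544, AY074887 and 4930455H04Rik, named for their zeros. Members and lists were chosen with earlier results of these data known. Results for some genes are not reported here.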

Additional observations from a re-analysis of the deposited data

How the results depend on the processing

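For Kif5A against input in dorsal root, the 292 calls became 294 with RLE factors, 288 with no filter on low counts, 277 with no robust fit, 404 with limma-voom and 390 with only transcripts found in both tables. They became 1179 with library size alone, 679 where only genes at 10 CPM or more in a group were tested, 1724 with DESeq2 and 120 transcripts in a fit per transcript. The fit of all 9 dorsal root libraries gave 1 call and that of all 18 libraries 0. Leaving out single libraries gave from 0 to 2735 calls, and a number from both groups from 0 to 2733. Equal replicate numbers are not said to share animals, and same-numbered Kif5A and input libraries deviated together with correlations of 0.152, 0.029 and 0.122. With the replicate block, dorsal root gave 1 call (0 higher, 1 lower) and sciatic nerve 4 in place of 0, and the other 3 comparisons stayed at 0. Every library correlated best with its own number, which is a hint from the data only. DESeq2 gave 193 calls for Kif5A against IgG, 1609 for IgG against input, 160 in sciatic nerve and 15 for the difference between tissues, each 0 with edgeR. Leaving out libraries or numbers gave from 0 to 2591 for IgG against input, from 0 to 1717 in sciatic nerve, from 0 to 86 for the difference between tissues and 0 for Kif5A against IgG. The cause was not tested.

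Of the 148 named genes, 6 changed sign under some alternative, none of them past the threshold. Their ratios there were -0.08 for Aldh1l1 without Kif5A 2, 0.08 for Fabp4 with library size alone, 0.01, 0.01 and 0.15 for Hdc with library size alone, without Kif5A 3 and without number 1, -0.02 and -0.07 for Kif5b without Kif5A 1 and without number 1, and -0.02 and -0.06 for Kpnb1 without input 1 and without number 1. For Ogn they were 0.34 with library size alone, 0.03 without input 1, 0.22 without Kif5A 3 and 0.09 without number 3. Over the left-out libraries the other ends of the ranges were 1.6 for Aldh1l1, -1.95 for Hdc, 0.17 for Kif5b, 0.18 for Kpnb1 and -0.41 for Ogn. The ribosomal protein median stayed between -1.72 and -0.76 and that of kinesin-1 chains between 0.75 and 1.27 over 20 alternatives. Spearman's rho of length stayed between 0.132 and 0.257 over 8. Reads per library limit the rarest genes most: with 0 reads in a group, 3 reads remain possible.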
